A study of Mus musculus with 6 samples.

Results

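The enzymes that hydroxylate and crosslink collagen were examined as a set of 10 genes, chosen by symbol: the lysyl oxidase genes Lox, Loxl1, Loxl2, Loxl3 and Loxl4, the lysyl hydroxylase genes Plod1, Plod2 and Plod3, and the prolyl 4-hydroxylase alpha subunit genes P4ha1 and P4ha2. All 10 were among the 23940 gene symbols of the table, and all 10 passed the filter of a mean of at least 1 FPKM over the libraries, which left 12075 genes. FPKM counts sequenced fragments relative to transcript length and library size, so levels of different genes can be set side by side. Loxl4 passed this filter only through the treated tumours, since its pre-treatment mean was 0.462 FPKM, so a higher value on treatment was built into its selection.

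The study profiled YUMM1.7 melanomas, grown in C57BL/6 mice from a murine line with mutated, active Braf. The 3 on-BRAFi libraries came from residual tumours under a BRAF inhibitor, and the 3 pre-treatment libraries came from tumours that had received none. In both groups the CD45-negative cells were sorted before RNA extraction, so tumour cells, fibroblasts and vessel cells were sequenced as a mix. The sources used here name neither the inhibitor nor its dose, its duration or the age of the mice, and all tumours derive from 1 cell line. Each library is labelled as its own tumour, but no label says that each tumour had its own mouse, so the p-values cover the spread between these tumours alone. Below, on treatment stands for the on-BRAFi libraries and before it for the pre-treatment libraries.

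Collagen chains are modified as they enter the endoplasmic reticulum. Prolyl 4-hydroxylases, made of alpha subunits that carry the active site and a beta subunit that is protein disulfide isomerase, hydroxylate prolines and so keep the triple helix stable at body temperature. Lysyl hydroxylases then modify lysines, and PLOD2 acts mainly on the telopeptides at the chain ends, which fixes the type of crosslink that can form. After secretion, the copper-dependent lysyl oxidases turn these lysines and hydroxylysines into aldehydes that join collagen and elastin molecules. Several of these enzymes, P4HA1, PLOD2 and LOX among them, are known targets of the hypoxia-inducible factor HIF, and stromal fibroblasts as well as tumour cells make them.

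Of the 10 enzyme genes, 5 changed between on-BRAFi and pre-treatment tumours, 3 upward and 2 downward (limma, Benjamini-Hochberg adjusted p below 0.05 over all genes tested). The genes that rose were Loxl1, Plod1 and P4ha2, and the genes that fell were Plod2 and P4ha1, so that both hydroxylase families held a gene that rose and one that fell. Among all 12075 genes 19.1% were called, 8.76% as higher and 10.3% as lower. The groups did not overlap for 7 of the enzyme genes, 5 higher and 2 lower on treatment, against 40.4% of all genes (20.9% higher and 19.5% lower). The median log2 fold change of the 10 was 0.98, beside -0.01 over all genes tested, and single values ran from -0.97 for Plod2 to 1.58 for Loxl4. Loxl4 is counted among the 5 without overlap and in the median. It passed the filter only through the treated tumours and is no support for either.

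**Figure D1:**
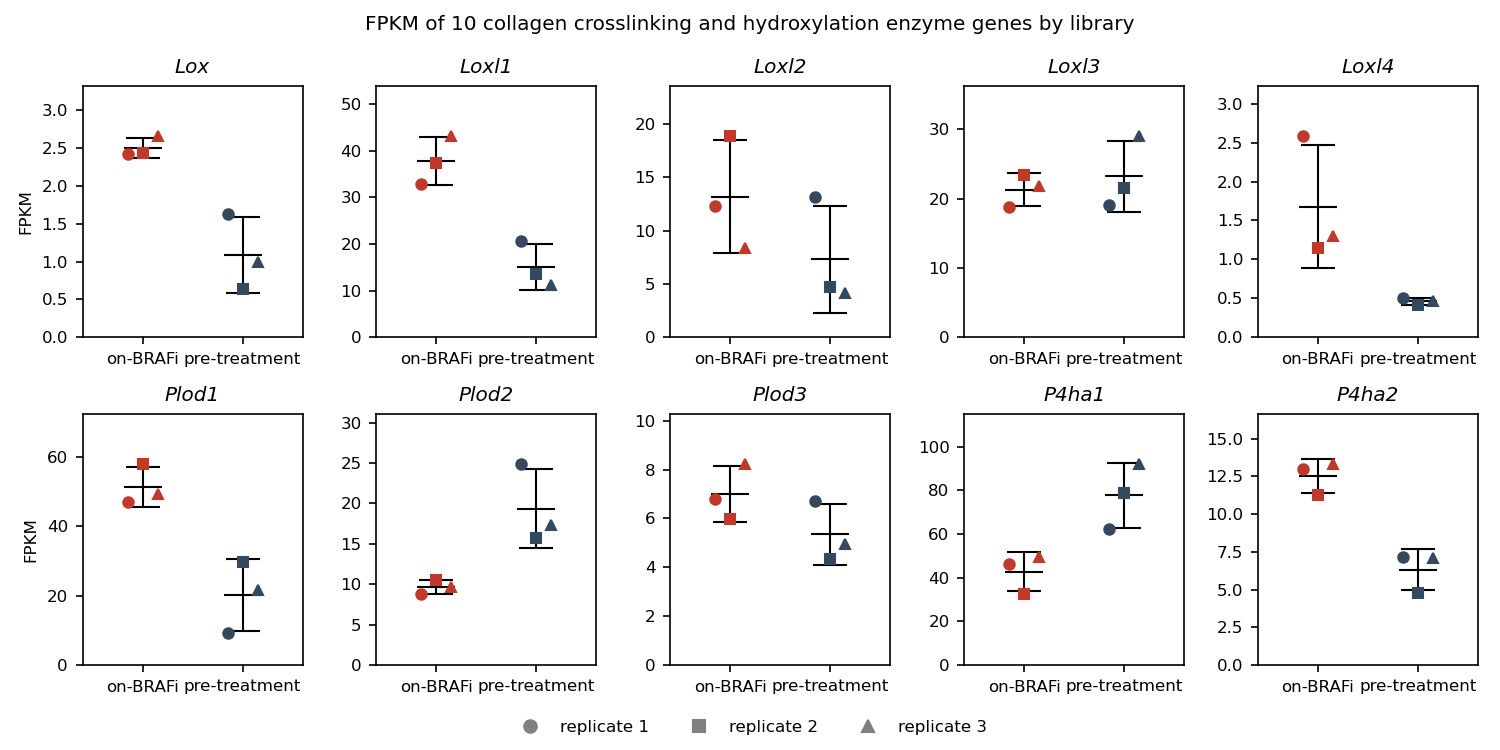
FPKM of each enzyme gene (vertical axis, from 0) in the 3 on-BRAFi libraries (red, left) and the 3 pre-treatment libraries (dark, right). Horizontal bars show the mean and SD, and symbols the replicate number. Plod2 and P4ha1 lie lower in every on-BRAFi library, whereas Lox, Loxl1, Loxl4, Plod1 and P4ha2 lie higher in every one.

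The size and the call of a change, and for some genes such as Loxl3 its sign, depend in part on how the libraries are scaled. The deposited values summed to between 414834 and 554684 FPKM in on-BRAFi libraries and between 562041 and 921297 FPKM in pre-treatment libraries, with the highest sum in pre-treatment replicate 1. On the deposited scale 1058 genes were called higher and 1249 lower. With every library brought to 1 total, the median log2 fold change of all genes became 0.53, with 2009 higher and 518 lower, and leaving short RNA genes out of that total moved it to 0.57 and gave 3791 and 680. Under these 2 scalings P4ha1 had log2 fold changes of -0.32 and -0.27, beside -0.87 on the deposited scale, and Plod2 -0.43 and -0.37, beside -0.97. Neither was called there, so ratios between genes of the same library, which scaling does not alter apart from the pseudocount, are given as well. Across the tested genes Spearman's correlation was 0.840 to 0.892 within groups and 0.694 to 0.798 between groups.

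Markers of other cells moved with the treatment and are given here because the sorted cells are a mix. Summed fibroblast markers stood at 1306 to 1541 FPKM in on-BRAFi libraries and 462 to 489 FPKM in pre-treatment libraries. Of 10 tested genes 6 were called higher and none lower, and Gsn, Dpt and Pdgfra had the highest levels. Pdgfra, Fap, Pdpn and Thy1 were not called, with log2 fold changes of 0.22, 0.01, -0.41 and 2.50. Of the marker genes called higher, Pi16, Clec3b, Mfap5, Tek, Notch3 and Tagln, from the fibroblast, endothelial and pericyte lists, passed the filter only through the treated tumours, so their calls are no support for these counts. Endothelial markers summed to 75.8 to 130 FPKM on treatment and 21.5 to 30.4 FPKM before it, with 8 of 9 higher. Pericyte and smooth muscle markers summed to 86.0 to 108 FPKM on treatment and 56.3 to 59.1 FPKM before it, with 3 of 6 higher and 1 lower. Of 7 melanocyte markers, Tyrp1, Dct and Mlana were listed at 0 in all 6 libraries and Sox10 stayed at or below 0.114 FPKM, whereas Tyr averaged 5.08 FPKM on treatment and 3.82 FPKM before it. A listed 0 can be a failed estimate, since Mia3, a broadly used secretory gene, is also at 0 in every library. Mitf averaged 21.5 FPKM on treatment and 5.77 FPKM before it. Leukocyte markers summed to 10.4 to 25.2 FPKM on treatment and 13.2 to 15.8 FPKM before it, with Ptprc, the CD45 gene, at 0.118, 1.10 and 0.809 FPKM on treatment and 0.609, 1.09 and 2.18 FPKM before it. Erythroid genes summed to 123 to 2059 FPKM on treatment and 130 to 249 FPKM before it, and Schwann cell genes to 9.64 to 28.2 FPKM on treatment and 5.86 to 16.8 FPKM before it. Adipocyte genes summed to 18.04 to 158 FPKM on treatment and 1.84 to 2.85 FPKM before it, nearly all of it Fabp4, which vessels also express. Skeletal muscle genes summed to at most 5.21 FPKM in either group, and keratinocyte genes to at most 0.607 FPKM, with Krt14, Krt1 and Trp63 at 0. The part of this changed mix in the values below was not tested, and fewer cells of a type cannot be told apart from less RNA per cell.

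P4ha1 and P4ha2, which encode prolyl 4-hydroxylase alpha subunits, changed in opposite directions. P4ha1, the more abundant of the pair, had 46.3, 32.5 and 49.3 FPKM on treatment, against 62.3, 79.0 and 92.0 FPKM before it. All on-BRAFi values lay below all pre-treatment values, and P4ha1 fell 1.83-fold, a log2 fold change of -0.87 ± 0.23 (SE, n = 3 each; limma, adjusted p = 0.0432). P4ha2, whose product forms the same kind of tetramer, had 13.0, 11.3 and 13.3 FPKM on treatment, against 7.13, 4.74 and 7.07 FPKM before it. It rose 2.00-fold, a log2 fold change of 1.00 ± 0.22 (limma, adjusted p = 0.0242), again without overlap. P4ha1 missed the threshold without any 1 on-BRAFi library or pre-treatment replicate 2 or 3 (adjusted p up to 0.113), and P4ha2 without any 1 on-BRAFi library or pre-treatment replicate 2 (up to 0.0852).

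Within each library, P4ha2 made up 21.9%, 25.8% and 21.3% of the summed FPKM of the pair on treatment, against 10.3%, 5.67% and 7.13% before it. The P4ha2 to P4ha1 ratio averaged 0.299 ± 0.0419 on treatment and 0.0838 ± 0.0279 before it (SD, n = 3 each), a 3.64-fold higher ratio in the means of logs. The 3 treated ratios were all above the 3 others, which gives p = 0.1 in an exact two-sided permutation test over samples, the smallest p that 3 against 3 can give. Of all tested genes 47.1% had a ratio to P4ha1 that was higher on treatment without overlap, so the shift of P4ha2 against P4ha1 is shared by many genes. On the deposited scale the sum of the pair was 55.2 ± 10.1 FPKM on treatment, against 84.1 ± 14.9 FPKM before it. P4ha1 still made up most of this sum in every library. The sum was not computed on another scale, and P4ha1 was not called after rescaling to the same total.

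Promoter sequences are shown for the 3 called genes that have an entry in the RefSeq promoter table (GRCm38.p6). Several of the 10 enzyme genes are known HIF targets, P4ha1 among them. Capitals mark ACGTG or GCGTG, the core to which HIF can bind, read on either strand, so that CACGC is the second of these on the opposite strand. Each line runs along the strand of its gene and ends before the first annotated start of transcription.
P4ha1, chr10:59323046-59323196, plus strand: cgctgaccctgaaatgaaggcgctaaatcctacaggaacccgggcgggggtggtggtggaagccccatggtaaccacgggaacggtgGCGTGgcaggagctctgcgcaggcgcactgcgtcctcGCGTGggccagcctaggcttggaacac
P4ha2, chr11:54100674-54100923, plus strand: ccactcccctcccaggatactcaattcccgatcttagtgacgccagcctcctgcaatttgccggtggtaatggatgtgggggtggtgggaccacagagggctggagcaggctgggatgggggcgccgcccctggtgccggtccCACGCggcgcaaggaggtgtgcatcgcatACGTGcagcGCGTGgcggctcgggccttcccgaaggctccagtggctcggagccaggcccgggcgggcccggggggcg
Plod1, chr4:147936777-147937026, minus strand: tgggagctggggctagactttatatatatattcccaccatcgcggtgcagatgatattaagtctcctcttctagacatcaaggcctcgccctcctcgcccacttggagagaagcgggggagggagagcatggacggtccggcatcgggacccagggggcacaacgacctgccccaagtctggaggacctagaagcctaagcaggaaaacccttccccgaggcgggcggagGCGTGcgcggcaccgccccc
Windows of 300 bases, from 250 before to 50 after the start that the table uses, are reported for 5 of the 10 genes. Lox was left out of this search, and Loxl1, Loxl2, Loxl3 and Plod2 had no entry. The core was found 3 times in the window of P4ha1, which fell, and 4 times in that of P4ha2, which rose. Plod1 had 2 matches, Plod3 had 4 and Loxl4 had 1. The lines shown end before the windows do, so they hold 2 of the matches of P4ha1, 3 of P4ha2 and 1 of Plod1. Among all 32851 windows 43.8% held at least 1 match and 8.93% at least 3, with the palindrome CACGTG counting as 2, and none of the 5 held CACGTG. G and C made up 70.3% of the windows of P4ha1 and of P4ha2, 64.3% for Plod1, 53.3% for Plod3 and 75% for Loxl4. The shares over all windows were not matched for this content, so they do not show whether these counts are unusual. The AP-1 motif TGANTCA was in none of the 5 windows and in 7.81% of all windows. These letters say nothing about whether a factor was bound in these cells.

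The lysyl hydroxylase genes differed among themselves in the same way. Plod1, whose product hydroxylates lysines within the helix, had 46.9, 58.0 and 49.2 FPKM on treatment, against 9.25, 29.8 and 21.6 FPKM before it. The groups did not overlap, and Plod1 rose 2.81-fold, a log2 fold change of 1.49 ± 0.41 (SE, n = 3 each; limma, adjusted p = 0.0470). Pre-treatment replicate 1 was far below the other tumours of its group, and without it the log2 fold change was 1.01 and still called (adjusted p = 0.0348). The call was lost without any 1 on-BRAFi library or pre-treatment replicate 3 (adjusted p up to 0.128).

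Plod2, the telopeptide lysyl hydroxylase, had 8.82, 10.5 and 9.68 FPKM on treatment, against 24.9, 15.7 and 17.4 FPKM before it. Every treated tumour was below every untreated one, with little spread among the treated, and Plod2 fell 1.96-fold, a log2 fold change of -0.97 ± 0.22 (SE; limma, adjusted p = 0.0258). Pre-treatment replicate 1, the lowest library for Plod1, was the highest for Plod2. Plod2 missed the threshold without any 1 on-BRAFi library or pre-treatment replicate 3 (adjusted p up to 0.0926). Plod3, whose product also transfers sugars to hydroxylysine, had 6.79, 5.96 and 8.23 FPKM on treatment, against 6.73, 4.35 and 4.94 FPKM before it. The groups overlapped and Plod3 did not pass, with a log2 fold change of 0.39 and a 95% interval from -0.19 to 0.98 (limma, adjusted p = 0.305).

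The 3 genes summed to 68.0 ± 6.03 FPKM on treatment and 44.9 ± 4.55 FPKM before it. The share of Plod1 in this sum was 75.0%, 77.9% and 73.3% on treatment, against 22.6%, 59.7% and 49.2% before it. The share of Plod2 was 14.1%, 14.1% and 14.4% on treatment, against 60.9%, 31.5% and 39.6% before it, so the 3 treated tumours were nearly alike while the untreated ones were spread widely. The Plod1 to Plod2 ratio averaged 5.31 ± 0.216 on treatment and 1.17 ± 0.764 before it, and the Plod3 to Plod2 ratio 0.729 ± 0.146 on treatment and 0.277 ± 0.00696 before it (SD, n = 3 each). Neither ratio overlapped between the groups (exact two-sided permutation p = 0.1 for each), as was the case for 58.5% of all tested genes set over Plod2.

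**Figure D2:**
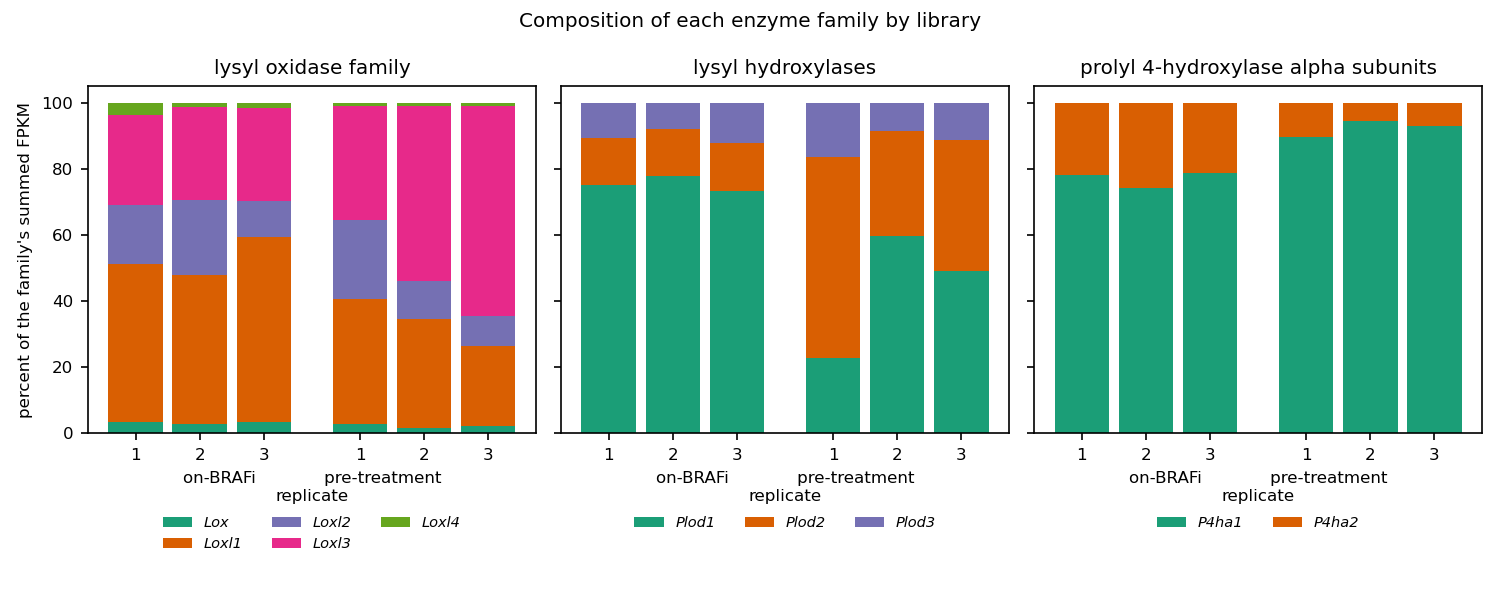
Percent of the summed FPKM of each enzyme family (vertical axis) held by each gene, with 1 bar per library, on-BRAFi left and pre-treatment right. Plod2 takes 14.1% to 14.4% of the lysyl hydroxylase sum in treated tumours and 31.5% to 60.9% in untreated ones, and P4ha2 takes 21.3% to 25.8% of its pair against 5.67% to 10.3%.

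Among the lysyl oxidases, Loxl1 alone passed the test. Loxl1, the paralogue needed for elastic fibre upkeep, had 32.8, 37.4 and 43.1 FPKM on treatment, against 20.7, 13.5 and 11.1 FPKM before it. The groups did not overlap, and Loxl1 rose 2.57-fold, a log2 fold change of 1.36 ± 0.26 (SE, n = 3 each; limma, adjusted p = 0.0142). It narrowly missed the threshold without pre-treatment replicate 2 (adjusted p = 0.0501) and was called without each of the other libraries.

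Lox, the founding member of the family, was expressed at a low level, with 2.42, 2.43 and 2.66 FPKM on treatment, against 1.63, 0.635 and 0.995 FPKM before it. The groups did not overlap, but Lox missed the threshold, with a log2 fold change of 1.22 and a 95% interval from 0.21 to 2.23 (limma, adjusted p = 0.0912). Loxl4 had 2.58, 1.15 and 1.30 FPKM on treatment, against 0.506, 0.413 and 0.468 FPKM before it. It too was higher in every treated tumour without passing, with a log2 fold change of 1.58 and an interval from 0.22 to 2.93 (limma, adjusted p = 0.102). Without on-BRAFi replicate 1, its highest library, Loxl4 no longer reached the filter.

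Loxl2, which also crosslinks collagen IV of basement membranes, had 12.3, 18.9 and 8.37 FPKM on treatment, against 13.1, 4.70 and 4.11 FPKM before it. The overlap came from pre-treatment replicate 1 at 13.1 FPKM, and Loxl2 did not pass, with a log2 fold change of 0.97 and an interval from -0.22 to 2.15 (limma, adjusted p = 0.220). Without that library the log2 fold change was 1.49 (adjusted p = 0.0503). Loxl3 had 18.8, 23.3 and 21.8 FPKM on treatment, against 19.1, 21.6 and 29.0 FPKM before it. Its groups overlapped, with a log2 fold change of -0.11 and an interval from -0.61 to 0.39 (limma, adjusted p = 0.754), and its sign turned under both rescalings to the same total.

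**Figure D3:**
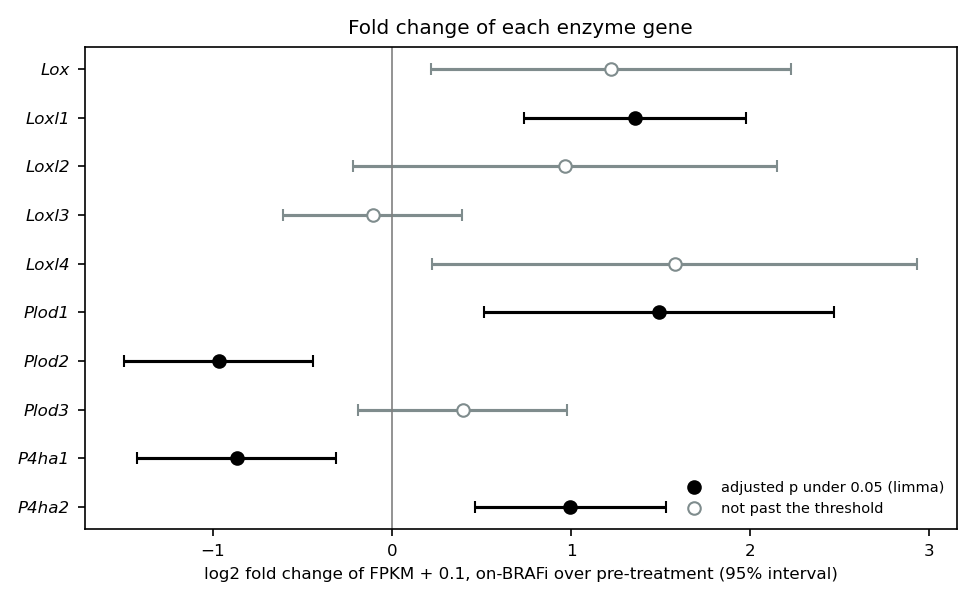
Log2 fold change of FPKM + 0.1, on-BRAFi over pre-treatment (horizontal axis), for each enzyme gene, with its 95% interval from limma. Filled points passed the adjusted threshold: Loxl1, Plod1 and P4ha2 to the right of 0, Plod2 and P4ha1 to the left.

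The 5 lysyl oxidase genes summed to 76.5 ± 7.17 FPKM on treatment and 47.2 ± 7.23 FPKM before it (SD, n = 3 each). Loxl1 held 47.6%, 44.96% and 55.8% of this sum on treatment, against 37.6%, 33.0% and 24.3% before it, and was the most abundant of the 5 in every treated tumour. Loxl3 held 27.2%, 28.1% and 28.2% on treatment, against 34.7%, 52.9% and 63.5% before it, and was the most abundant in untreated tumours 2 and 3. Lox and Loxl4 together stayed a small part, with mean shares of 3.29% and 2.27% on treatment and 2.23% and 0.986% before it. The Loxl3 to Lox ratio averaged 8.52 ± 0.955 on treatment and 25.0 ± 11.7 before it and did not overlap (exact two-sided permutation p = 0.1), beside 62.4% of all tested genes whose ratio to Lox was lower without overlap. The ratios of Loxl1, Loxl2 and Loxl4 to Lox, and of Loxl1 to Loxl2, overlapped between groups (exact two-sided permutation p = 0.6 for each).

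Most genes that encode the substrates of these enzymes rose in the same libraries. Of 8 fibrillar collagen and elastin genes 7 rose and none fell, with a median log2 fold change of 2.02, beside 0.98 for the 10 enzyme genes. Col1a1, the main chain of collagen I, had 872, 773 and 736 FPKM on treatment, against 81.5, 54.9 and 67.3 FPKM before it. Col3a1, Col1a2 and Col5a1 rose 9.07-fold, 4.49-fold and 2.96-fold (limma, adjusted p = 0.000419, 0.00115 and 0.00259). All 6 enzyme genes set over Col1a1 had lower ratios on treatment without overlap, as had 94.6% of all tested genes. P4ha1 reached 0.0540 ± 0.0126 of the Col1a1 level on treatment and 1.19 ± 0.371 of it before (SD, n = 3 each), and Plod2 reached 0.0123 ± 0.00190 of it on treatment and 0.283 ± 0.0237 before. For genes that rose the ratio was nearer to its earlier value, which follows by arithmetic from their rise over a shared denominator. Loxl1 stood at 0.0482 ± 0.0105 of the Col1a1 level on treatment and 0.221 ± 0.0490 before it. P4ha2 stood at 0.0159 ± 0.00197 of it on treatment and 0.0930 ± 0.0105 before it. On the log scale the ratio to Col1a1 was 23.1-fold lower for Plod2 and 21.5-fold lower for P4ha1. It was 6.03-fold lower for Loxl2, 5.91-fold for P4ha2, 5.06-fold for Lox and 4.60-fold for Loxl1. Over the 14 ratios tested, those without overlap had an adjusted permutation p of 0.14, and with 3 against 3 none could have been under 0.1.

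**Figure D4:**
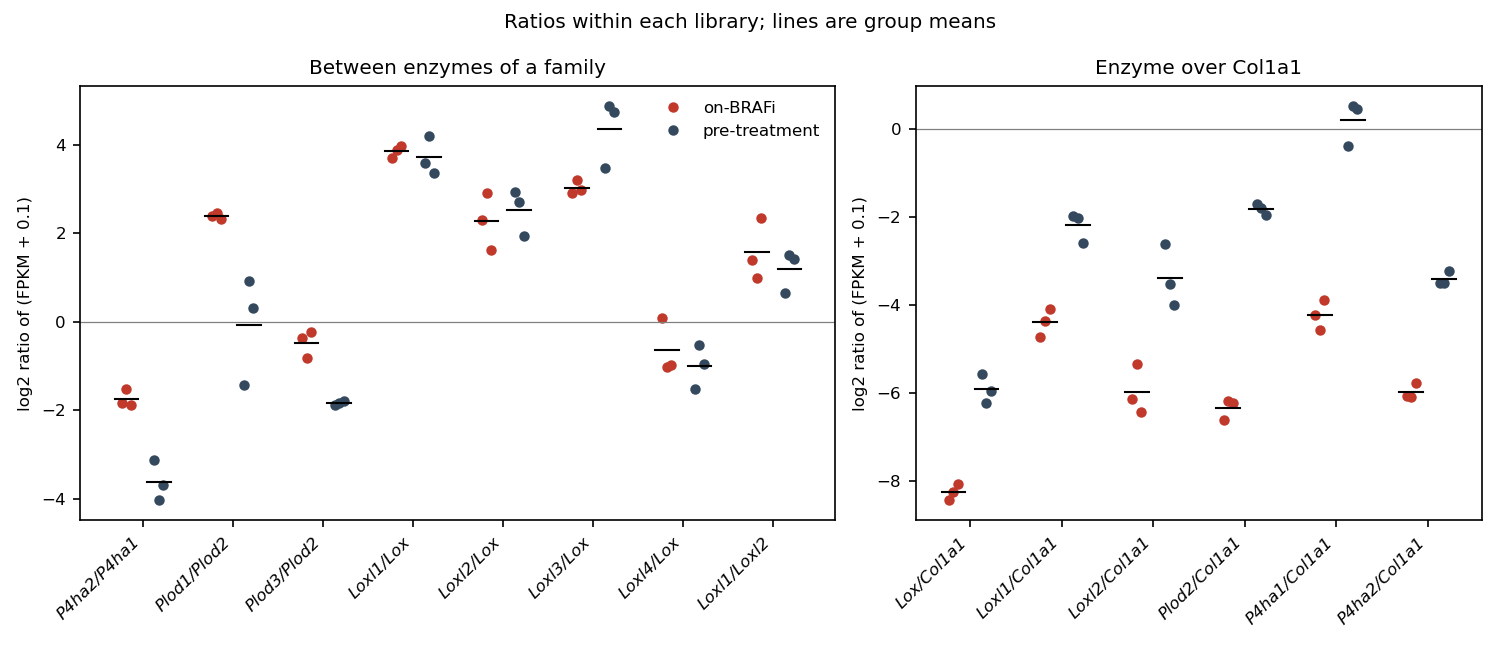
Log2 ratio of FPKM + 0.1 between 2 genes of the same library (vertical axis), for pairs of enzymes of a family (left) and for 6 enzymes over Col1a1 (right), with points for on-BRAFi (red) and pre-treatment (dark) libraries and lines at the group means. All 6 ratios to Col1a1 are lower in every on-BRAFi library, whereas P4ha2/P4ha1, Plod1/Plod2 and Plod3/Plod2 are higher in every one.

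Partners of the prolyl 4-hydroxylases in the endoplasmic reticulum were not called. P4hb, the beta subunit, was at 345 ± 23.6 FPKM on treatment and 314 ± 15.5 FPKM before it, far above P4ha1 and P4ha2 in both groups. P4ha3, a further alpha subunit gene outside the 10 and named after its values were seen, had 11.7, 5.01 and 14.6 FPKM on treatment, against 9.43, 13.1 and 6.92 FPKM before it. Its groups overlapped, and its 95% interval of the log2 fold change ran from -1.03 to 1.03. Of 7 tested genes of prolyl hydroxylation outside the 10 none passed limma's test, 1 had an unadjusted p below 0.05, and the median log2 fold change was 0.13. That gene was Crtap, a subunit of the prolyl 3-hydroxylase complex, at 21.5 ± 4.22 FPKM on treatment and 13.8 ± 3.13 FPKM before it (adjusted p = 0.108). Lepre1, the enzyme of that complex, was at 11.0 ± 1.49 FPKM on treatment and 7.89 ± 1.23 FPKM before it, and Ppib, its cyclophilin, at 350 ± 42.7 FPKM on treatment and 314 ± 27.8 FPKM before it. With quantile normalization or the same total 2 of these genes were called higher, and 4 with the total that leaves out short RNAs.

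Chaperones and processing enzymes of collagen differed from one another. In the list of glycosylation and folding genes 5 of 10 rose and none fell, with a median log2 fold change of 0.91. Creb3l1, a transcription factor of the endoplasmic reticulum that drives collagen I transcription in bone, had 18.4, 18.7 and 17.0 FPKM on treatment, against 0.466, 0.824 and 0.634 FPKM before it (limma, adjusted p = 0.000274). Fkbp14 and Fkbp7, prolyl isomerases of the endoplasmic reticulum, rose 4.57-fold and 2.66-fold (adjusted p = 0.00735 and 0.00450), and Sparc, a collagen-binding protein, rose 3.47-fold (adjusted p = 0.00138). Fkbp9, a further isomerase and named only as the fifth of the 5, rose 3.27-fold (adjusted p = 0.0332), a call lost without any 1 on-BRAFi library. A pair of collagen chaperones was chosen after its values were seen. Serpinh1, known as HSP47, was at 189 ± 8.68 FPKM on treatment and 147 ± 17.1 FPKM before it, and Fkbp10, a partner of PLOD2, at 30.4 ± 3.94 FPKM on treatment and 23.2 ± 2.96 FPKM before it; neither passed (limma, adjusted p = 0.153 and 0.186). Of 6 procollagen processing genes Adamts2, a protease that removes the amino-terminal propeptide, rose 6.02-fold (adjusted p = 0.00120), and Pcolce2 rose 4.92-fold (adjusted p = 0.0385), a call lost without on-BRAFi replicate 1 or 2 or any 1 pre-treatment library. Pcolce and Bmp1 were at 105 ± 26.7 and 17.0 ± 3.11 FPKM on treatment, against 74.0 ± 20.9 and 12.3 ± 4.22 FPKM before it, and did not pass.

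Of 11 genes that guide fibril and crosslink formation 7 rose and none fell, with a median log2 fold change of 2.93. Fmod, a proteoglycan that directs lysyl oxidase to its sites on collagen, had 11.2, 6.84 and 13.7 FPKM on treatment, against 0.158 FPKM in pre-treatment replicate 3 and a listed 0 in the other two. Tnxb, a matrix protein that binds fibrils, had 18.7, 16.7 and 9.63 FPKM on treatment and 0.0902, 0.0699 and 0.0803 FPKM before it. Lum and Postn, which bind collagen fibrils, rose 12.6-fold and 24.8-fold (limma, adjusted p = 0.000118 and 0.000216). Chosen after their values were seen, for their link to these enzymes, Fbln5, which binds LOXL1 in elastic fibres, rose 7.84-fold (adjusted p = 0.00705), and Efemp2, which binds the precursor of LOX, rose 1.697-fold (adjusted p = 0.0375). Efemp2 lost its call without on-BRAFi replicate 2 or 3 or any 1 pre-treatment library (adjusted p up to 0.106). The 4 genes of this list that were not called, named for their count, were Bgn, Fn1, Tgm2 and Ltbp4. Their log2 fold changes were 0.23, 0.98, -0.24 and 1.42. Creb3l1, Pcolce2, Fmod and Tnxb had pre-treatment means under 1 FPKM and passed the filter only through the treated tumours. Their calls are therefore no support for the counts and medians of their lists.

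**Figure D5:**
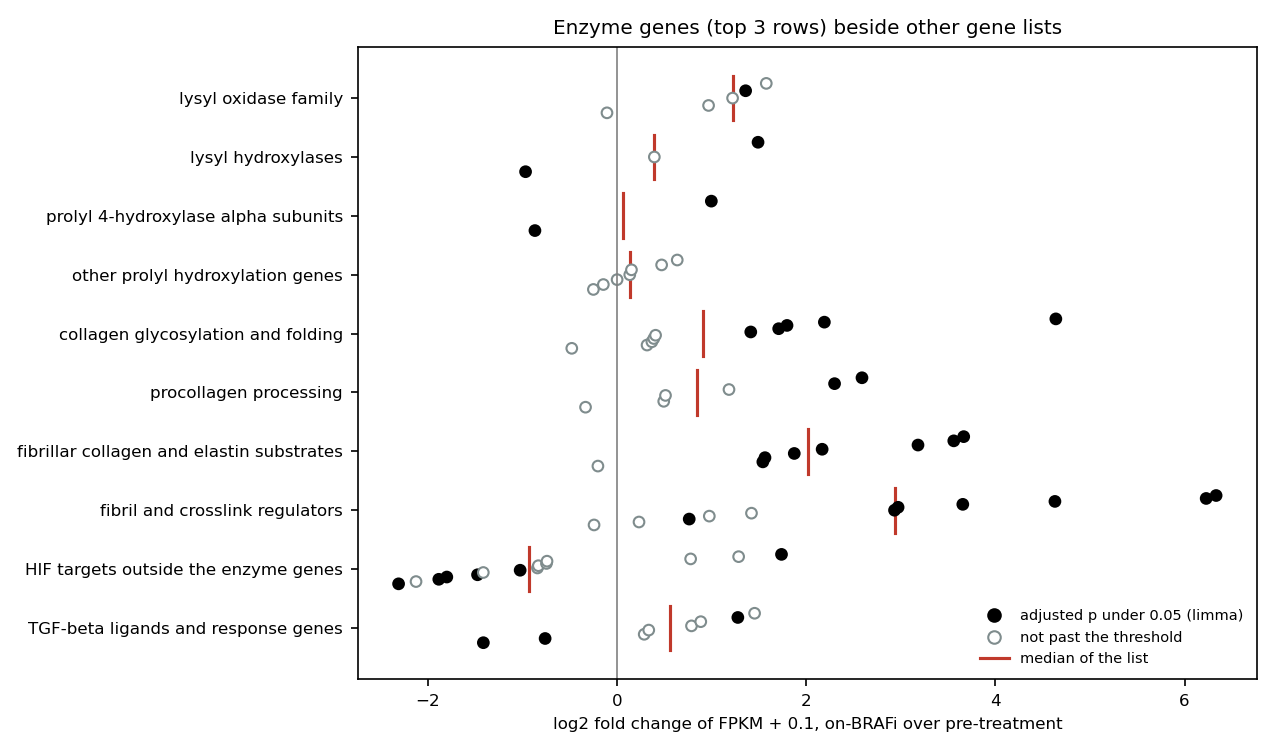
Log2 fold change, on-BRAFi over pre-treatment (horizontal axis), of every tested gene of 10 lists, 1 list per row, with the enzyme families in the top 3 rows. Filled points passed limma's adjusted threshold and red lines mark list medians, which are 1.22, 0.39 and 0.06 in the enzyme families, 2.02 in the substrates and -0.93 in HIF targets outside the 10 genes. Loxl4 in the first of these, and Car9 and Egln1 in the last, passed the filter through 1 group only.

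HIF targets and TGF-beta genes were followed because HIF and TGF-beta themselves are known to act on some of the genes above. Of 14 HIF targets outside the 10 genes, 5 fell and 1 rose, with a median log2 fold change of -0.93. Car9 and Egln1 of this list, named for this limit and not called, had on-BRAFi means of 0.499 and 0.659 FPKM. They passed the filter only through the pre-treatment tumours, so they are no support for the median. Pgk1, Ldha, Bnip3 and Ero1l had log2 fold changes of -1.88, -1.80, -1.48 and -2.31 (limma, adjusted p = 0.00165, 0.00128, 0.0136 and 0.0152), beside -0.97 for Plod2 and -0.87 for P4ha1. Lox and P4ha2, which respond to hypoxia in other settings, stood at 1.22 and 1.00. Whether HIF or TGF-beta had a part in the values of the 10 genes was not tested. The other 2 calls, named for their count, were a fall of Vegfa and a rise of Ndrg1, at 36.9 ± 11.3 FPKM on treatment and 11.3 ± 4.84 FPKM before it. Without on-BRAFi replicate 1, 3 of the HIF targets fell and none rose, and Vegfa was not called without any 1 on-BRAFi library, without pre-treatment replicate 1 or 2, or after rescaling to the same total. The call of Ndrg1 was also lost without on-BRAFi replicate 2 or pre-treatment replicate 2 or 3. Of 8 TGF-beta ligands and response genes, 1 rose and 2 fell. Tgfb3, a ligand, rose 2.42-fold and Tgfbi, a matrix protein, fell 1.69-fold (limma, adjusted p = 0.0152 and 0.0410), while Ctgf was at 20.4 ± 5.22 FPKM on treatment and 10.9 ± 2.29 FPKM before it (adjusted p = 0.0501). Neither fall was called without on-BRAFi replicate 3 or pre-treatment replicate 3 or after rescaling to the same total, and without pre-treatment replicate 1 3 of the 8 genes rose.

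The pattern of each enzyme gene over the 6 libraries was compared with that of 7059 other genes by the root mean square difference of centred log2 values, as a description. For Loxl1 the closest gene was Gnao1 (difference 0.0932), for P4ha2 it was Cx3cl1 (0.0655) and for Plod1 it was Cpq (0.166). For Plod2 the closest was Asnsd1 (0.0650), for P4ha1 it was Pnpt1 (0.126) and for Plod3 it was Dse (0.0729). The closest to Lox was Efcab2 (0.165), to Loxl2 Nnmt (0.295), to Loxl3 Sema6a (0.0633) and to Loxl4 Bdh2 (0.119). Within the set, P4ha1 and Plod2 were each other's nearest (0.429), as were Lox and P4ha2 (0.252), while the nearest to Loxl1 and to Loxl2 was Lox (0.274 and 0.494). Plod1 stood furthest from the rest, with its nearest at 0.705.

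Reads of some enzyme genes may belong to overlapping genes, and the libraries do not keep strand. In the GENCODE M21 annotation of GRCm38, a build other than the mm9 of the files, 535 exonic bases of Loxl3 (11.6% of its exon bases) overlap Htra2 on the other strand. In Plod3 529 bases (11.7%) overlap Znhit1. Htra2 averaged 2.15 FPKM on treatment and 3.27 FPKM before it, and Znhit1 3.39 FPKM on treatment and 6.14 FPKM before it, so both neighbours were below the gene they overlap except Znhit1 before treatment. On the same strand, 7 bases of Loxl2 overlap Mir6950, listed at 83.4 FPKM on treatment and 0 before it, and 9 bases of Plod3 overlap Mir702, at 56.6 FPKM on treatment and 9.25 FPKM before it. Their part in the values of Loxl2 and Plod3 was not tested. Loxl2, Plod2 and Lox share 301, 346 and 30 exonic bases with unnamed antisense or unclassified models that the table does not list.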

How the data were processed

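RNA from the CD45-negative cells of 6 tumours was sequenced, and the authors deposited 1 table of FPKM per gene symbol and library. Per the labels' protocols, poly(A) RNA went into unstranded TruSeq libraries, described as single-end in one place and paired-end in another. Per the submitters' processing notes, reads were handled with Cuffdiff, Cuffnorm, TopHat and TopHat2 on mm9, without versions. FPKM values did not resolve into whole reads, so the depth is unknown and no counting interval is given. Genes with a mean of at least 1 FPKM were fitted as log2(FPKM + 0.1) with limma 3.58.1 in R 4.3.3 (eBayes with trend, two-sided, Benjamini-Hochberg over 12075 genes, threshold 0.05), a procedure tested on simulated data. Fold changes are on that scale and understate the change of low genes.

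Ratios were tested by exact permutation over samples. The members and lists were chosen with earlier results of these data known. Named genes are the 10 enzymes, the 4 genes of each biology list with the smallest p, abundant or absent cell type markers, and the closest gene to each enzyme; gene models were left out, and 1 gene that the rule names is not reported here. Prolyl 3-hydroxylase genes were matched by their older symbols. Alternatives were other pseudocounts, filters, scalings and variance models, the tumour number as a block, leaving out each library and, chosen after seeing the data, a total without short RNAs. All 6 columns matched a sample.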

Additional observations from a re-analysis of the deposited data

How the results depend on the processing

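The directions of Loxl1, Plod1, P4ha2, Plod2 and P4ha1 were the same under all 17 alternatives run for each; their calls were not. Loxl1 was called in 15 of the 17, P4ha2 in 12, Plod2 in 10, Plod1 in 7 and P4ha1 in 5. Against 3 genes higher and 2 lower, rescaling to the same total called 5 and 0, and without short RNAs 7 and 0. A single lower gene was left with no filter on low values, median of ratios scaling, quantile normalization or no variance trend, a count of 1 in each. Leaving out 1 library gave 1 to 3 higher and 0 to 2 lower. For Loxl3 the log2 fold change turned to 0.44 with the same total, to 0.49 without short RNAs and, over the fits that leave out 1 library, ran from -0.24 to 0.065, positive without pre-treatment replicate 3. Of 64 tested genes in the other biology lists 23 were higher, with Creb3l1, Pcolce2, Fmod and Tnxb counted among them, and 7 lower. The total without short RNAs gave 42 and 4, the same total 33 and 4, and leaving out 1 library 19 to 24 and 4 to 7. Of the 30 called, 20 passed under every alternative. Creb3l1, Fmod and Tnxb are among these 20 and passed the filter only through the treated tumours, so they are no support for this count. A pseudocount of 1 moved the difference in log2 ratio from 0.14 to 0.53 for Loxl1/Lox and from -2.34 to -2.77 for Lox/Col1a1, where Lox is low. The cause of the other changes was not tested. With the tumour number as a replicate block none of the 10 enzyme genes was called, 0 higher and 0 lower, and 500 and 737 of all genes were, against 1058 and 1249. Deviations of same-numbered tumours correlated at -0.03, 0.01 and -0.09, and those of different-numbered tumours at -0.09 to 0.12. With 3 tumours per group these values cannot tell whether a shared number stands for a real pairing. Depth is unknown, so counting error could not be given for low genes such as Lox and Loxl4.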
